A study of Sus scrofa with 14 samples.

Results

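The synthesis and export of cholesterol in the pig mammary gland and in milk cells was followed through 7 genes, of 30071 gene identifiers in the count files. They were taken by name, with earlier results of these data known, and no threshold on their values was used. HMGCS1 and SQLE make cholesterol, INSIG1 and SREBF2 regulate that synthesis, and ABCA1, ABCG1 and ABCG2 are membrane transporters. Each symbol matched 1 gene identifier.

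Cholesterol is built from acetyl-CoA in a long chain of enzyme steps, which cells switch on when their membranes run low in sterol. SREBF2 encodes the transcription factor that drives the chain, and INSIG1 encodes the membrane protein that holds this factor back in the endoplasmic reticulum while sterol is plentiful. Sterol in excess is handed out of the cell by ABCA1 and ABCG1, both induced by the liver X receptors, and the secretory epithelium of the mammary gland also needs sterol for the membrane around each milk fat globule. ABCG2 moves drugs, urate and riboflavin across the apical membrane and is known from lactating epithelium, so it is an exporter in a wider sense.

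Single-nucleus RNA sequencing covered 10 glands, each from 1 multiparous sow in its second breeding cycle, with 2 sows at each of 5 stages: day 90 of gestation (G90), day 0 (L0) and day 20 (L20) of lactation, and 2 days (PI2) and 7 days (PI7) after natural involution. The gland sampled was the third on the right-hand side of the body, and the labels name no treatment or genetic change in any group. Spatial transcriptomics covered 1 G90 and 1 PI2 section, and single-cell sequencing of milk covered 1 sample of colostrum (L0) and 1 of mature milk (L20). The labels give the tissue of these last 2 as mammary gland and the study's text as milk, and casein and LALBA transcripts took 16.04% and 6.13% of their UMIs. The sow is the replicate in every test.

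Levels are given as CPM, the unique molecular identifiers (UMIs) of a gene per 1000000 UMIs added up over all nuclei of 1 class from 1 gland. The 10 glands held 18962138 to 53165191 UMIs, and 126833 of 128233 nuclei were kept. Nuclei were put in the class for which they carried most marker genes, which placed 97341 of them, 23261 by a margin of 1 marker, and left 29492 without a class. Epithelial nuclei numbered 65032, and 1415 to 15547 of them came from each gland, with the lowest number in L20 replicate 2, where they were 9.34% of nuclei. All 9 epithelial markers present in the files were detected in the epithelial nuclei of every gland, and gland and milk libraries shared 52 to 284 cell barcodes a pair, at most 1.52% of the smaller library. G90 replicate 2 and PI2 replicate 2 stand apart from the other sow of their stage in several of the 7 genes, so the epithelial stage comparisons were also fitted without each of them. The L20 glands also lay apart, in ABCA1, ABCG1 and INSIG1. Casein and LALBA transcripts took 0.0854% of UMIs in L20 replicate 1 and 0.0107% in replicate 2, beside 0.0115% and 0.0197% in the PI7 glands. From L0 to L20, values without L20 replicate 2 are given for INSIG1 and ABCA1 alone. What sets that gland apart was not tested. Nothing in the labels ties the 2 sows of a stage to 1 litter or day.

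The promoters of 3 of the genes are shown, picked by their motifs. HMGCS1 and SREBF2 share a short motif, and ABCA1, like ABCG2, held none of the motifs searched. No link between motifs and levels was tested. Each run is the 250 bases before the gene's RefSeq start on Sscrofa11.1, 5′ to 3′ on the gene's strand, which is the minus strand in these 3. Capitals mark matches to a sterol regulatory element, TCACNCCAC, and to a CCAAT box, CCAAT, on either strand (ATTGG is CCAAT read on the other strand).
HMGCS1, chr16:27957262-27957511: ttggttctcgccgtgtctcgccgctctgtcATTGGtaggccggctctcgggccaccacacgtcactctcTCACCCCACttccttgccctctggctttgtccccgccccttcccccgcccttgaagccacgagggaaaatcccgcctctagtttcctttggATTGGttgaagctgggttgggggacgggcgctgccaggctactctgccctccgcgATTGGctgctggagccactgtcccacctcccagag
SREBF2, chr5:6784725-6784974: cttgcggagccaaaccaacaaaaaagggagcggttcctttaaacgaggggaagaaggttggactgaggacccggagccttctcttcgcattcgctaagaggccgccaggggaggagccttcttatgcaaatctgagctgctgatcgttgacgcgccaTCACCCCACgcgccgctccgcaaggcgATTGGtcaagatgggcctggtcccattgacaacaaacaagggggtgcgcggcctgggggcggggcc
ABCA1, chr1:246278493-246278742: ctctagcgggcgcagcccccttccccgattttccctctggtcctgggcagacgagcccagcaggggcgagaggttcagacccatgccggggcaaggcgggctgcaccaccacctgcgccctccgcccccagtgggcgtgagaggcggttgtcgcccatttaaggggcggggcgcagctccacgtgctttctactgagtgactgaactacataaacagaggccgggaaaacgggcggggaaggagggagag

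The sterol regulatory element stood 181 to 173 bases before the start of HMGCS1 and 93 to 85 before SREBF2, and was not found in the windows of INSIG1, ABCA1, ABCG1 and ABCG2. Of 19556 promoters of protein-coding genes of the same length, 157 (0.803%) held it. A CCAAT box was found 3 times at HMGCS1 and 1 time each at INSIG1, SREBF2 and ABCG1, and 6238 of the 19556 promoters (31.9%) held at least 1. The 2 motifs did not overlap in these windows. A direct repeat of the kind bound by liver X receptors, AGGTNA and NGGTCA with 4 bases between on either strand, was in none of these 6 windows and in 12 of the 19556 (0.0614%). These matches describe the letters of the windows and are not binding sites shown by data. Bases after the start, or further before it, were not searched.

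On Sscrofa11.1, HMGCS1 (ENSSSCG00000016872) lies at chr16:27936225-27957261, SQLE (ENSSSCG00000005970) at chr4:14669789-14700152 and SREBF2 (ENSSSCG00000026092) at chr5:6719484-6784724, all on the minus strand. INSIG1 (ENSSSCG00000016420) lies at chr18:2885494-2898758 and ABCA1 (ENSSSCG00000005423) at chr1:246144277-246278492, also on the minus strand. ABCG1 (ENSSSCG00000027745) lies at chr13:205561897-205628428 and ABCG2 (ENSSSCG00000009215) at chr8:130853414-130945388, both on the plus strand.

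In epithelial nuclei, the synthesis genes were low at every stage and stood apart in 1 gland of early involution. HMGCS1, which makes HMG-CoA at the entrance of the mevalonate pathway, was at 17.2 and 41.3 CPM in G90 glands, 28.2 and 30.5 in L0 glands, 15.04 and 13.8 in L20 glands, 14.3 and 58.6 in PI2 glands, and 20.0 and 14.1 in PI7 glands (replicates 1 and 2 in each pair). Both L0 glands were above both L20 glands, an order for which no share of all genes was computed. The 2 sows of G90 and of PI2 lay far apart. SQLE, which oxidises squalene in the first oxygen-requiring step towards sterols, was at 7.16 and 9.16 CPM in G90 glands, 7.67 and 5.31 in L0 glands, 7.26 and 8.63 in L20 glands, 3.57 and 36.8 in PI2 glands, and 8.70 and 2.14 in PI7 glands. In SQLE, 9 of the 10 glands thus stayed below 10 CPM and PI2 replicate 2 was the exception.

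The regulators differed from each other. INSIG1 was at 13.5 and 91.9 CPM in G90 glands, 110.2 and 140.1 in L0 glands, 37.8 and 14.1 in L20 glands, 22.9 and 50.9 in PI2 glands, and 15.6 and 31.9 in PI7 glands. Both glands of L0 were above all 8 other glands, with G90 replicate 2 next. The share of all genes that separate in this way was not computed. SREBF2 was at 85.6 and 84.9 CPM in G90 glands, 63.5 and 74.9 in L0 glands, 61.9 and 38.3 in L20 glands, 44.4 and 144 in PI2 glands, and 44.8 and 44.8 in PI7 glands. Apart from PI2 replicate 2, both G90 glands were the highest. The L0 glands were above the L20 glands by a narrow margin, 63.5 against 61.9 CPM in the nearest pair. No share of all genes was computed for these orders.

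**Figure D1:**
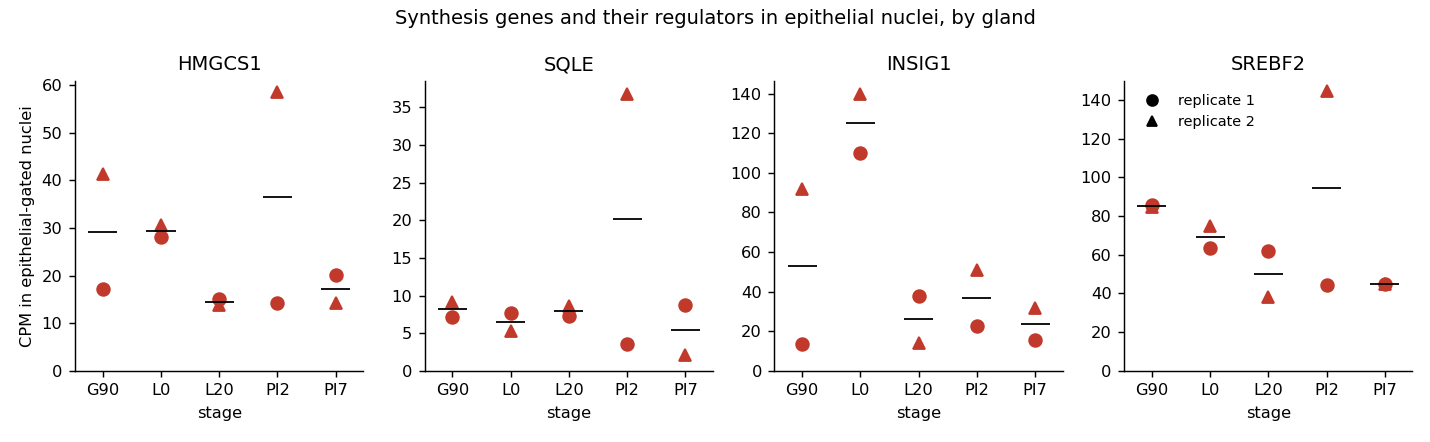
CPM in epithelial nuclei (y axis) of HMGCS1, SQLE, INSIG1 and SREBF2 by stage (x axis), with circles for replicate 1, triangles for replicate 2 and a line at the mean of the 2 sows. PI2 replicate 2 is the highest gland in HMGCS1 (58.6), SQLE (36.8) and SREBF2 (144), while the 2 L0 glands (110.2 and 140.1) are the highest in INSIG1.

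The 2 cholesterol exporters had their lowest stage means at G90 and L0, where ABCG2 had its highest. ABCA1, which loads cholesterol onto apolipoprotein A-I, was at 67.6 and 44.0 CPM in G90 glands, 33.0 and 22.4 in L0 glands, 165 and 604 in L20 glands, 229.9 and 25.2 in PI2 glands, and 463 and 479.8 in PI7 glands. ABCG1, which passes cholesterol to high-density lipoprotein particles, was at 3.98 and 1.17 CPM in G90 glands, 1.40 and 1.67 in L0 glands, 20.1 and 44.9 in L20 glands, 45.9 and 5.15 in PI2 glands, and 66.3 and 66.0 in PI7 glands. In both genes the 4 glands of G90 and L0 lay below the 4 glands of L20 and PI7 without overlap, and at PI2 replicate 1 was near the later group and replicate 2 near the earlier one. This grouping was made after the values were seen, and the share of all genes that separate in this way was not computed.

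ABCG2 was at 116 and 869 CPM in G90 glands, 92.7 and 121 in L0 glands, 21.4 and 25.7 in L20 glands, 15.5 and 15.5 in PI2 glands, and 30.2 and 20.7 in PI7 glands. All 4 glands of G90 and L0 were above all 6 later glands, a grouping again made after the values were seen and without a share of all genes. G90 replicate 2 was far above every other gland, and it was also the highest of the 10 in endothelial nuclei (254 CPM), fibroblasts (401), macrophages (358) and T and NK cells (233), and of the 9 glands with enough mural nuclei (349). The 4 milk protein genes found in the files, which epithelium makes, summed to 8528 CPM in epithelial nuclei and 1590 in macrophage nuclei of that gland, against 1595 and 105 in G90 replicate 1. The part of free epithelial RNA in the ABCG2 of other classes was not tested.

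Stages were compared with edgeR's quasi-likelihood test on UMIs summed over epithelial nuclei of each gland, over 19842 genes, and a gene was called at a Benjamini-Hochberg adjusted p under 0.05 and an absolute log2 fold change over 1. From G90 to L0, 0 of the 7 genes were called, beside 0.00504% of all genes tested, and 1 had an unadjusted p under 0.05, beside 11.7% of all genes. That gene was ABCG2, at a log2 fold change of -1.98 (SE 0.79, adjusted p = 0.358 by edgeR), and DESeq2 called 0. Without G90 replicate 2 its log2 fold change was 0.51, so its direction rested on that gland. INSIG1 was at 1.47 (SE 0.95) with both G90 glands and at 3.84 (SE 1.09, edgeR adjusted p = 0.424) without that one, and HMGCS1 at 0.30 and 1.40. The median log2 fold change was 0.01 over the 7 genes and -0.09 over all genes.

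Between L0 and L20 the exporters differed most. None of the 7 was called by edgeR, beside 0% of all genes tested, and 4 had an unadjusted p under 0.05, beside 12.8% of all genes. ABCG1 was higher at L20 by 3.89 on the log2 scale (SE 0.89, adjusted p = 0.140 by edgeR), and ABCA1 by 3.24 (SE 0.83, adjusted p = 0.172). ABCG2 was lower, at -2.62 (SE 0.81, adjusted p = 0.222), and so was INSIG1, at -2.57 (SE 0.99, adjusted p = 0.308). Without L20 replicate 2, the gland with fewest epithelial nuclei, INSIG1 was at -1.91 and ABCA1 at 2.40, and without L20 replicate 1 INSIG1 was at -3.87. DESeq2 called 3 of them, ABCA1 (adjusted p = 0.00186), ABCG1 (0.00021) and ABCG2 (0.0265), beside 4.74% of all genes by the same fit, and so did edgeR with no filter on low counts, beside 1.37%. ABCA1 and ABCG1 were also called by edgeR without PI2 replicate 1 (both adjusted p = 0.0463) and without PI2 replicate 2 (both 0.0440), beside 0.366% and 0.374% of all genes. Neither gland is from L0 or L20, but more than the shared spread differed in these fits. They tested 21057 and 21151 genes in place of 19842. The median log2 fold change was -0.82 over the 7 genes and 0.05 over all genes.

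The steps into and through involution gave no call by edgeR, nor by DESeq2, which called 0.0403% of all genes in the first and 0.0706% in the second. From L20 to PI2, 0 of the 7 genes were called, beside 0% of all genes, and 0 had an unadjusted p under 0.05 by edgeR, beside 3.50% of all genes. From PI2 to PI7, 0 were called, beside 0% of all genes, and 2 had an unadjusted p under 0.05, beside 2.74% of all genes. These were SQLE, at -2.30 (SE 0.97), and SREBF2, at -1.38 (SE 0.62), each with an edgeR adjusted p that rounds to 1. Both values rested on PI2 replicate 2, without which the log2 fold change of SQLE was 0.46 and that of SREBF2 -0.09, and 0 of the 7 had an unadjusted p under 0.05, beside 3.83% of all genes. HMGCS1 went from -1.42 to 0.14 and ABCA1 from 1.72 to 0.93 when that gland was left out. In the step from L20 to PI2, leaving it out turned HMGCS1 from 1.51 to -0.10, SQLE from 1.57 to -1.21, SREBF2 from 1.03 to -0.31 and INSIG1 from 0.56 to -0.37. The medians over the 7 genes were 0.56 and -0.87 in the 2 steps, and 0.10 and -0.05 over all genes. Without PI2 replicate 2 they were -0.37 and 0.42, and -0.13 and 0.05 over all genes.

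When L0 was set against the mean of the other 4 stages, 0 of the 7 genes were called, beside 2.07% of all genes, and 4 had an unadjusted p under 0.05, beside 17.5%. INSIG1 was higher at L0 by 2.24 on the log2 scale (SE 0.66, adjusted p = 0.113 by edgeR) and ABCG2 by 1.59 (SE 0.55, adjusted p = 0.170). ABCG1 was lower, at -3.18 (SE 0.79, adjusted p = 0.0716), as was ABCA1, at -2.31 (SE 0.72, adjusted p = 0.130). DESeq2 called 3, INSIG1 (adjusted p = 0.0231), ABCA1 (0.00506) and ABCG1 (9.5e-05), beside 8.34% of all genes by the same fit, and edgeR with no filter on low counts called the same 3, beside 3.41%. Leaving out G90 replicate 2, edgeR called INSIG1 (2.83) and ABCG2 (2.21), beside 1.92% of all genes, and leaving out PI2 replicate 1 or 2 it called ABCA1 and ABCG1, beside 3.89% and 3.25%. The median was 0.46 over the 7 genes and -0.06 over all genes. Stage comparisons that share L0, L20 or PI2 glands are not independent of each other.

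**Figure D2:**
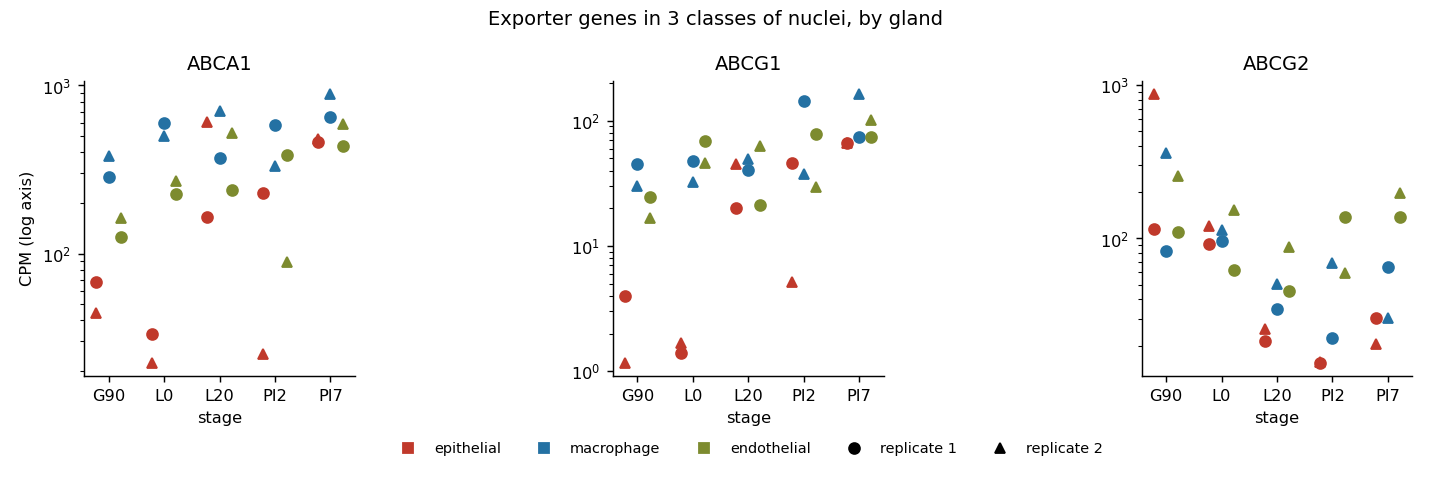
CPM (y axis, logarithmic) of ABCA1, ABCG1 and ABCG2 by stage (x axis) in epithelial, macrophage and endothelial nuclei, with circles for replicate 1 and triangles for replicate 2. Epithelial ABCA1 spans 22.4 to 604 CPM and ABCG1 1.17 to 66.3, while macrophage ABCA1 stays between 286 and 885.

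Macrophage markers were also higher in the epithelial nuclei of L20 and PI7, where ABCA1 and ABCG1 were high. All 8 macrophage markers summed to 19.4 to 61.7 CPM in epithelial nuclei of G90 and L0, 130.3 and 163 in L20 glands, 53.9 and 41.1 in PI2 glands, and 171 and 167 in PI7 glands, against 3030 to 6838 in macrophage nuclei. The sum was 53.9 in PI2 replicate 1, where ABCA1 was at 229.9 CPM, and 61.7 in G90 replicate 1, where it was at 67.6. The part of macrophage RNA in the epithelial level of ABCA1 and ABCG1 was not tested. Under a gate that asked for 3 or more epithelial markers and no marker of another class, chosen after the data were seen, ABCA1 was at 67.3 and 41.3 CPM in G90 glands, 31.5 and 21.1 in L0 glands, 211 and 605 in L20 glands, 242 and 17.4 in PI2 glands, and 458 and 467 in PI7 glands. The gate left 49 nuclei with 73 ABCA1 UMIs in L20 replicate 2 and 182 to 3757 nuclei in the other glands. The G90 and L0 glands lay below those of L20 and PI7 under it. ABCG2 under the same gate was at 97.3 to 888 CPM in the 4 glands of G90 and L0 and at 14.9 to 33.2 in the 6 later ones.

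Other genes of the pathway were read from lists of 18 synthesis genes, 15 genes of SREBP control and uptake and 11 of efflux. From PI2 to PI7, 15 of 16 synthesis genes tested had a negative log2 fold change (median -1.18) and 0 were called by edgeR. In the step before, from L20 to PI2, 14 of 16 had a positive one (median 0.77) and again 0 were called by edgeR or DESeq2, with 1 and 2 at an unadjusted p under 0.05 in the earlier and the later step (3.50% and 2.74% of all genes). Both patterns rested on PI2 replicate 2, without which 8 of 16 were positive in the earlier step (median -0.04) and 9 of 16 negative in the later one (median -0.21). IDI1, which isomerises the isoprenoid building block, had the lowest edgeR p of the synthesis list in the later step (log2 fold change -3.58, SE 1.08, edgeR adjusted p that rounds to 1). Both steps share the PI2 glands, in which replicate 2 was the high one for HMGCS1 and SQLE.

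At L0 against the other stages, 3 genes of the lists were called by edgeR, all higher. INSIG2, the second retention protein of the SREBP system, was higher by 2.42 (SE 0.28, adjusted p = 0.00643). CYP27A1, which turns cholesterol into 27-hydroxycholesterol, was higher by 1.59 (SE 0.32, adjusted p = 0.0336), and ABCA5, a lysosomal lipid transporter, by 1.58 (SE 0.29, adjusted p = 0.0257). Of the synthesis list 0 of 16 were called, of control and uptake 1 of 14 and of efflux 2 of 10, beside 2.07% of all genes. The 3 calls became 0 when L0 replicate 1 (0.0190% of all genes) or 2 (0.0709%) was left out, 2 without G90 replicate 2 (1.92%), 5 without PI2 replicate 2 (3.25% of all genes) and 6 with DESeq2 (8.34%). From G90 to L0 edgeR called 0 of the 40 genes tested, beside 0.00504% of all genes, with 8 at an unadjusted p under 0.05, beside 11.7%, DESeq2 called 4, beside 4.37%, and INSIG2 had a log2 fold change of 2.91 (SE 0.44, adjusted p = 0.0690).

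In macrophages the level of ABCA1 was less spread over stages than in epithelium, at 286 and 379.5 CPM in G90 glands, 602 and 503 in L0 glands, 370.4 and 709 in L20 glands, 579 and 331 in PI2 glands, and 646 and 885 in PI7 glands. ABCG1 was at 45.2 and 29.8 CPM in G90 glands, 47.8 and 32.4 in L0 glands, 40.3 and 49.4 in L20 glands, 144 and 37.4 in PI2 glands, and 74.4 and 162 in PI7 glands. In ABCG1, 3 of the 4 involution glands were above all 6 earlier glands, and PI2 replicate 2 was the exception. This order was read after the values were seen, without a share of all genes. When PI2 and PI7 were set against the 3 earlier stages in macrophages, over 9096 genes, 0 of the 7 genes were called by edgeR, beside 0% of all genes, and 3 had an unadjusted p under 0.05, beside 6.61%. They were ABCG1 at 1.23 (SE 0.41, adjusted p = 0.690), INSIG1 at 0.66 (SE 0.30) and ABCG2 at -1.13 (SE 0.50).

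The same contrast called 0 of the 7 genes by edgeR in fibroblasts, over 13521 genes and beside 0% of all genes, and 0 in endothelial nuclei, over 12929 genes and beside 0%. An unadjusted p under 0.05 was reached by 0 of the 7 in fibroblasts, beside 5.24% of all genes, and by 0 in endothelial nuclei, beside 6.96%. DESeq2 called 0 in macrophages, fibroblasts and endothelial nuclei, beside 0.0770%, 0.325% and 0.364% of all genes. The medians over the 7 genes were -0.11 in macrophages, -0.41 in fibroblasts and 0.17 in endothelial nuclei, and 0.07, 0.04 and 0.06 over all genes.

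Whether this contrast of PI2 and PI7 with the 3 earlier stages differed between these classes and epithelium was tested as an interaction. The test was added after the data were seen, and its contrast does not set involution apart from earlier steps. In epithelial nuclei without G90 replicate 2, ABCG2 was at a log2 fold change of -2.63 from L0 to L20 and -0.44 from L20 to PI2. No member was called by edgeR in macrophages (0% of all genes called), fibroblasts (0%) or endothelial nuclei (0.00577%). An unadjusted p under 0.05 was reached by 2 members in macrophages, 1 in fibroblasts and 1 in endothelial nuclei, beside 4.19%, 5.01% and 6.82% of all genes, and DESeq2 was not run on it. ABCG2 came nearest. Its log2 fold change in endothelial nuclei exceeded that in epithelial nuclei by 2.64 (SE 0.56, edgeR adjusted p = 0.241), and that in fibroblasts did by 1.93 (SE 0.45, adjusted p = 0.318). Without G90 replicate 2 these differences were 2.24 (SE 0.46, adjusted p = 0.444 by edgeR) and 1.72 (SE 0.44, adjusted p = 0.561). Leaving out PI2 replicate 2 instead, they were 2.88 (SE 0.59, adjusted p = 0.128 by edgeR) and 2.09 (SE 0.50, adjusted p = 0.177), also not called. Endothelial ABCG2 was at 110.3 and 254 CPM in G90 glands, 62.5 and 152 in L0 glands, 45.8 and 88.4 in L20 glands, 138 and 59.5 in PI2 glands, and 137 and 198 in PI7 glands, so its stages overlapped.

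The high SQLE of PI2 replicate 2 was not confined to epithelium. In macrophages that gland was the highest of the 10 at 53.4 CPM, against 4.49 in PI2 replicate 1, and in endothelial nuclei it was again the highest at 23.8, against 6.08. Both macrophage levels rest on few UMIs, so the size of their gap is imprecise. In fibroblasts it stood at 24.4, against 6.96, but both L0 glands were higher there (42.4 and 44.2). The milk proteins of its epithelial nuclei (1041 CPM) were above those of PI2 replicate 1 (525) and below those of both L0 glands (8726 and 11980). The part of these differences in the SQLE level was not tested.

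Across classes of nuclei, the 2 cholesterol exporters and INSIG1 were the genes called higher in macrophages. Each class was set against the mean of the others with the sow as a block, over 12025 genes, in 9 classes. Of 63 pairs of gene and class, 11 were called by edgeR (17.5%), near the 15.5% of all 108225 pairs tested. HMGCS1 and SQLE were called in no class by edgeR, DESeq2 called SQLE lower in epithelium (-1.02), and the medians over sows were 13.5 to 21.3 CPM for HMGCS1 and 0 to 22.4 CPM for SQLE.

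Macrophages had 3 of the 7 genes called, beside 18.7% of all genes, all higher. ABCA1 ranged from 286 to 885 CPM over 10 macrophage sums (median 541), against 22.4 to 604 (median 116) in epithelial ones, and was higher than the mean of the other classes by 1.56 on the log2 scale (SE 0.17, adjusted p = 1.4e-12 by edgeR), above it in 10 of 10 sows. ABCG1 ranged from 29.8 to 162 CPM (median 46.5) and was higher by 1.64 (SE 0.26, adjusted p = 1.4e-07), in 10 of 10 sows. INSIG1 ranged from 58.5 to 172 CPM (median 107), against a median of 34.9 in epithelial nuclei, and was higher by 2.04 (SE 0.20, adjusted p = 2.6e-15), in 9 of 10 sows. Of the control and uptake list, 5 of 12 genes tested were called higher in the same nuclei and 0 lower. They were SOAT1, which esterifies cholesterol, by 2.58, LIPA, which frees it in lysosomes, by 2.31, NPC2 by 2.28 and NPC1 by 1.29, both of which carry it out of lysosomes, and SCARB1, a lipoprotein receptor, by 1.26.

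Endothelial nuclei had 1 of the 7 called, beside 14.1% of all genes. ABCG1 ranged from 16.7 to 101 CPM (median 54.9) and was higher by 1.46 (SE 0.25, adjusted p = 6.9e-07 by edgeR), in 10 of 10 sows. ABCG2 was higher by 0.97 (SE 0.22, adjusted p = 0.000272 by edgeR), short of the fold threshold. It passed that threshold with no filter on low counts (1.04) and with the 2 narrower gates (1.06 and 1.11). Those fits called 8.64%, 20.0% and 27.6% of all genes in endothelial nuclei. APOA1, the acceptor for ABCA1, was higher there by 4.94 (SE 0.24), and MYLIP, which encodes a ubiquitin ligase, by 1.81 (SE 0.18). Of 7 efflux genes tested there, 1 was called higher and 1 lower, and of 12 of control and uptake 3 higher and 0 lower.

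Mural cells, the contractile cells of vessels, had 1 called, beside 10.2% of all genes. Their ABCG2 ranged from 56.0 to 349 CPM over 9 sows (median 158) and was higher by 1.15 (SE 0.29, adjusted p = 0.00207 by edgeR), in 7 of 9 sows. The call was lost without PI7 replicate 2. Myoepithelial nuclei had 1 called as well, beside 13.2%, and there ABCG2 was lower, at 11.7 to 125 CPM (median 28.4) and a log2 fold change of -1.24 (SE 0.31, adjusted p = 0.00109), below the other classes in 10 of 10 sows.

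Fibroblasts had 1 called, beside 10.3% of all genes. ABCG1 was at 0 to 34.5 CPM (median 10.3) and lower than in the other classes, at a log2 fold change of -1.101 (SE 0.30, adjusted p = 0.00251 by edgeR), in 10 of 10 sows. The call was lost without L20 replicate 2 and without PI7 replicate 2. Adipocytes, tested in 5 sows of L20, PI2 and PI7, had 2 called, beside 19.5%. These were ABCG1 at -2.38 (SE 0.65, adjusted p = 0.00382 by edgeR) and SREBF2 at -1.04 (SE 0.34, adjusted p = 0.0187), below the other classes in 5 of 5 sows. ABCG1 had 12 UMIs in L20 replicate 2, 1 in PI7 replicate 2 and 0 in the other sows tested. SREBF2 had 56 UMIs in L20 replicate 2 and 0 to 2 in the others. Outside L20 replicate 2 both genes were thus near the floor, where a low count alone puts a sow below the other classes. Adipocyte nuclei were few, 382 of 474 from L20 replicate 2, and the SREBF2 call was lost without L20 replicate 1, PI2 replicate 1, PI7 replicate 1 or PI7 replicate 2. ABCA1 was high in them, at 364 to 836 CPM (median 669.5), but its log2 fold change of 0.77 (SE 0.26, adjusted p = 0.0255) was under the threshold. DESeq2 called it higher (1.02, adjusted p = 0.00552), beside 19.9% of all genes. So did edgeR without the sow block (1.37, adjusted p = 0.0211), beside 13.5%. Of 12 genes of control and uptake tested in adipocytes, 3 were called higher and 2 lower. SREBF1, the lipogenic relative of SREBF2, was among the higher ones, by 1.54.

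T and NK cells had 2 called, beside 19.5% of all genes, both lower. ABCA1 was at 6.81 to 286 CPM (median 106) and a log2 fold change of -1.26 (SE 0.23, adjusted p = 5.0e-06 by edgeR), below the other classes in 10 of 10 sows, and INSIG1 at -1.24 (SE 0.34, adjusted p = 0.00235) in 9 of 10. SREBF2 was higher by 0.91 (SE 0.16), under the threshold, and called with library totals in place of TMM factors (1.05), beside 18.8% of all genes. Epithelial nuclei had 0 of the 7 called, beside 23.1% of all genes, with 3 at an unadjusted p under 0.05, beside 63.0%. Without the sow block INSIG1 (1.22) and ABCG2 (1.11) were called there, beside 26.9% of all genes. B and plasma cells had 0, beside 10.8%, with 2 at an unadjusted p under 0.05, beside 32.0%. DESeq2 called SREBF2 higher there (1.04), beside 12.5% of all genes. Of 14 genes of the synthesis list tested in epithelium, 2 were called higher, DHCR7 (1.39) and HSD17B7 (1.22), and 0 lower, beside 23.1% of all genes.

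**Figure D3:**
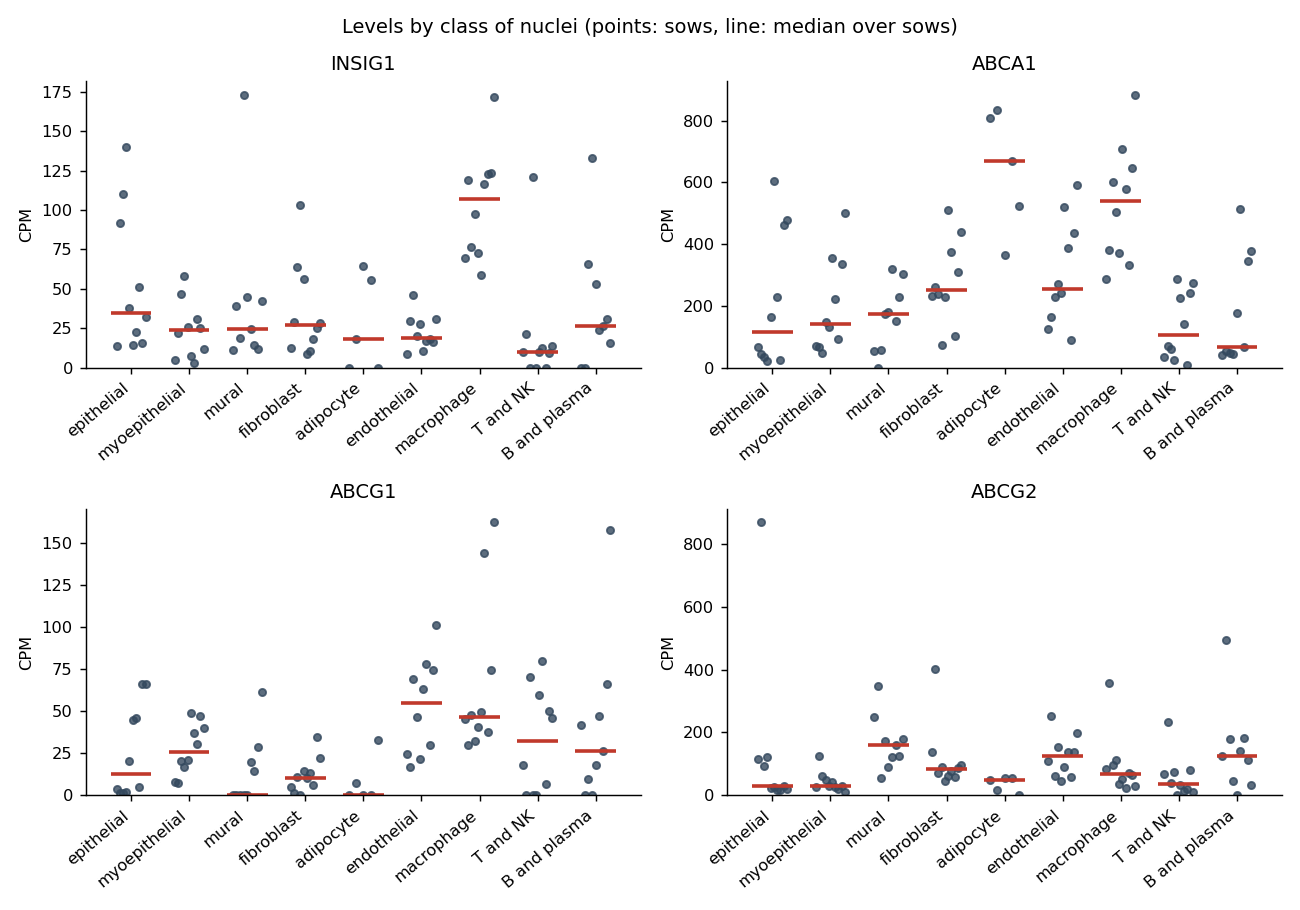
CPM (y axis) of INSIG1, ABCA1, ABCG1 and ABCG2 in 9 classes of nuclei (x axis), with 1 point a sow and a red line at the median over sows. Macrophages have the highest median of INSIG1 (107), and a single epithelial point of ABCG2 at 869 is G90 replicate 2. The ABCA1 median is highest in adipocytes (669.5, 5 sows of L20, PI2 and PI7) and macrophages (541, 10 sows of all stages), so these 2 medians cover different sows.

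Patterns most like each gene's were sought over the 10 epithelial sums, by Pearson's r of log2(CPM + 1) among 9128 genes. The nearest to ABCA1 were LGALS3 (r = 0.979), which encodes galectin-3, and ZEB2 (0.969), which the study lists among its immune cell markers. The part of macrophage RNA in this likeness was not tested. FBLN7 (0.977) was nearest to ABCG1. The nearest was ATM (0.978) to ABCG2, RB1CC1 (0.964) to HMGCS1, UIMC1 (0.894) to SQLE, SYNJ1 (0.924) to INSIG1 and ANXA6 (0.929) to SREBF2. Over 85 sums of sow and class, among 10256 genes, SQLE was nearest to CYP51A1 (0.689), the next-but-one enzyme of its own pathway, and ABCA1 to PLXDC2 (0.711). The sums share their libraries and stages, so these values describe likeness and nothing more.

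Milk held 1 library a stage, so its levels carry no replicate error, and the 95% Poisson intervals given cover counting error only. After filtering, 17571 of 22257 barcodes of colostrum and 14514 of 18733 of mature milk were used. HMGCS1 was at 473 CPM (468 to 477) in colostrum and 161 (157 to 165) in mature milk, 2.94-fold lower in the latter. Cells gated as epithelial carried 36088 of its 38277 UMIs in colostrum and 5757 of 6910 in mature milk. They held 55088693 of all 80995806 UMIs in colostrum and 8913573 of 42948881 in mature milk. A ratio over all cells thus cannot tell the mix of cells from levels within a class. ABCA1 was at 78.6 CPM (76.7 to 80.6) and 779 (771 to 788), 9.91-fold higher in mature milk. ABCG2 was at 15.6 CPM (14.8 to 16.5) and 7.497 (6.70 to 8.36), 2.08-fold lower. Of its UMIs, 1099 of 1266 in colostrum and 88 of 322 in mature milk came from cells gated as epithelial.

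The other 4 genes differed by less than 2-fold in milk. SQLE was at 51.2 and 26.7 CPM, and was 2.14-fold lower in mature milk when caseins, LALBA and mitochondrial genes were left out of the total. INSIG1 was at 225 and 158, SREBF2 at 37.0 and 28.8, and ABCG1 at 19.6 and 26.2, in colostrum and mature milk. Thus 3 of the 7 passed 2-fold, beside 38.7% of 17029 genes, 1 of them higher in mature milk (14.1% of all genes) and 2 lower (24.6%). The median log2 ratio was -0.51 over the 7 genes and -0.09 over all genes.

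Within milk, levels differed by class of cell, and the classes were rebuilt here from markers. Epithelial cells, 2848 in colostrum and 949 in mature milk, had HMGCS1 at 655 CPM (648 to 662) and 646 (629 to 663). With a stricter gate of 3 or more markers HMGCS1 was at 584 and 441 CPM, and with no marker of another class allowed, in 43 and 72 cells, at 741 and 459, so how far it was lower in mature milk within epithelial cells depended on the gate. SQLE was at 56.6 and 58.1 CPM in them. INSIG1 was at 260 and 446 CPM, but at 214 and 250 with the stricter gate. SREBF2 was at 22.5 CPM (21.3 to 23.8) and 9.65 (7.72 to 11.9), and ABCG2 at 19.9 (18.8 to 21.2) and 9.87 (7.92 to 12.2), both 2-fold or more lower in mature milk.

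Neutrophils were the most numerous class, at 10635 and 6397 cells, and carried 3932 of 6370 ABCA1 UMIs in colostrum and 17833 of 33468 in mature milk. Their level was 254 CPM (246 to 262) in colostrum and 1929 (1901 to 1957) in mature milk, 7.59-fold higher, and 245 and 2046 with the stricter gate. ABCG1 was at 75.4 CPM (71.1 to 79.8) and 76.8 (71.2 to 82.7) in the same cells. HMGCS1 was lower in mature milk, at 53.7 CPM (50.1 to 57.4) and 15.8 (13.3 to 18.6), and so was SQLE, at 18.1 (16.04 to 20.4) and 6.16 (4.67 to 7.99). Epithelial cells held a larger share of all UMIs in colostrum than in mature milk. The part of free epithelial RNA in the HMGCS1 and SQLE levels of neutrophils was not tested.

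ABCA1 was also higher in mature milk in epithelial cells, at 9.28 CPM (8.49 to 10.1) and 44.8 (40.5 to 49.4), and in T and NK cells, at 34.5 (19.7 to 56.1) and 137 (121 to 155), or 45.2 and 105 with the stricter gate. The 6 neutrophil markers in the files summed to 340 and 201 CPM in the epithelial cells of colostrum and mature milk, against 32345 and 20169 in neutrophils, whose own ABCA1 level was the higher one in mature milk. The part of neutrophil RNA in the epithelial ABCA1 level was not tested. In cells gated as macrophages, ABCA1 was at 176 and 331 CPM, but at 304 and 294 with the stricter gate. These cells carried more neutrophil than macrophage marker UMIs (5909 against 5488 CPM in colostrum, 7091 against 3444 in mature milk), so their label is weak. HMGCS1, SQLE and INSIG1 were lower in mature milk in them too, at 59.1 and 21.4 CPM, 56.7 and 14.6, and 175 and 66.5. Here as well, the part of free epithelial RNA was not tested.

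**Figure D4:**
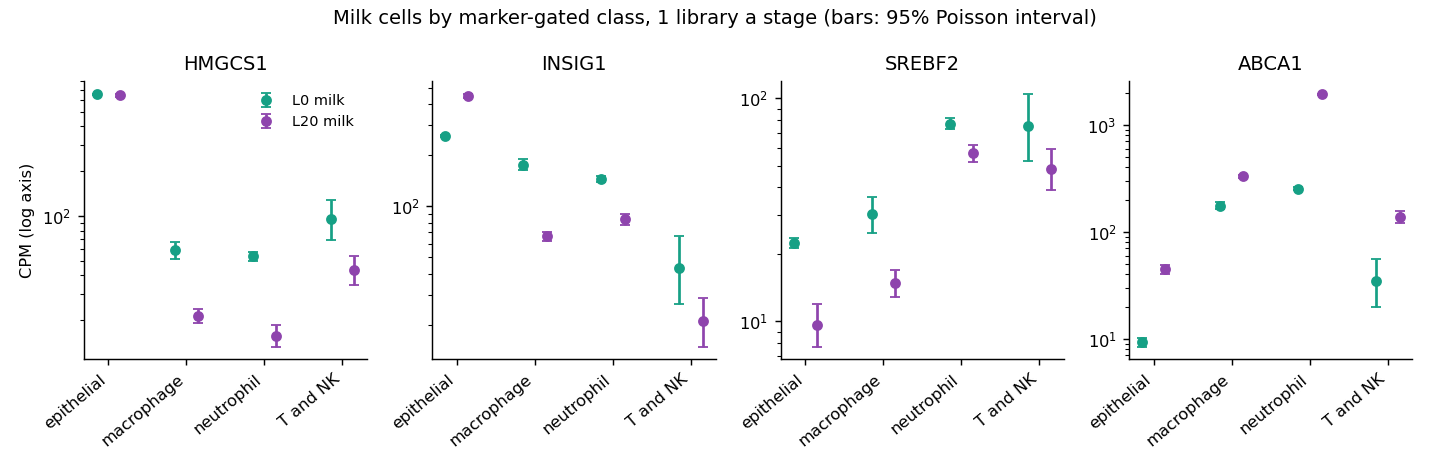
CPM (y axis, logarithmic) of HMGCS1, INSIG1, SREBF2 and ABCA1 in 4 classes of milk cells (x axis), in colostrum (L0, green) and mature milk (L20, purple), with bars for the 95% Poisson interval of 1 library a stage. Epithelial HMGCS1 lies at 655 and 646 CPM, while neutrophil ABCA1 goes from 254 to 1929.

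The 2 tissue sections, 4721 spots at G90 and 2248 at PI2, also stood alone at their stage. A spot holds several cells, so fewer cells of a type and less RNA per cell cannot be told apart. All 4 genes of synthesis and its control were lower at PI2. HMGCS1 was at 82.3 CPM (79.6 to 85.1) at G90 and 14.7 (13.0 to 16.6) at PI2, 5.58-fold lower, SQLE at 15.8 (14.6 to 17.0) and 2.12 (1.502 to 2.91), 7.44-fold lower, and INSIG1 at 28.8 (27.2 to 30.4) and 9.66 (8.28 to 11.2), 2.98-fold lower. SREBF2 was at 90.3 CPM (87.5 to 93.2) and 53.6 (50.3 to 57.1).

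All 3 exporters were higher in the PI2 section. ABCG1 was at 2.80 CPM (2.32 to 3.35) at G90 and 27.0 (24.6 to 29.5) at PI2, 9.62-fold higher, and ABCG2 at 23.9 (22.5 to 25.4) and 56.9 (53.4 to 60.5), 2.38-fold higher. ABCA1 was at 34.4 CPM (32.6 to 36.2) and 55.2 (51.8 to 58.7), a ratio of 1.60. Thus 5 of the 7 genes passed 2-fold, beside 30.5% of 13428 genes, 2 of them higher at PI2 (13.6% of all genes) and 3 lower (16.8%). The median log2 ratio was -0.75 over the 7 genes and -0.11 over all genes. Between G90 and PI2, ABCG2 went the other way in epithelial nuclei than in the sections. So did the epithelial means of HMGCS1 (29.2 and 36.4 CPM), SQLE (8.16 and 20.2) and SREBF2 (85.2 and 94.4), which PI2 replicate 2 carried. The sections hold all cell types and these nuclei 1 class, so the directions are of unlike measures.

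**Figure D5:**
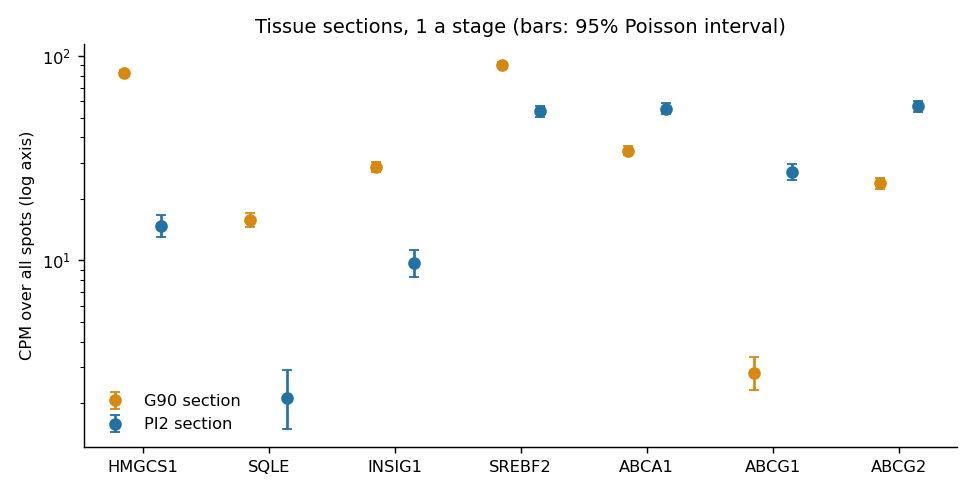
CPM over all spots (y axis, logarithmic) of the 7 genes (x axis) in the G90 and the PI2 section, with bars for the 95% Poisson interval. HMGCS1, SQLE, INSIG1 and SREBF2 are lower at PI2 and ABCA1, ABCG1 and ABCG2 higher, the widest gap being that of ABCG1 (2.80 and 27.0).

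Inside each section, the spots richest in epithelial markers were set against those richest in adipocyte markers, 424 spots of each kind at G90 and 211 at PI2, with 49 and 14 spots that were both left out. No gene of the 7 differed over 2-fold in the same direction in both sections, beside 5.09% of 8998 genes. INSIG1 at PI2 had 48 UMIs in the epithelial-rich spots (27.4 CPM, 20.2 to 36.4) and 2 in the adipocyte-rich ones (1.74, 0.211 to 6.28). When the richest 20% of spots were taken in place of 10%, it had 62 UMIs (17.5 CPM, 13.4 to 22.5) and 12 (5.27, 2.72 to 9.21), so the gap was narrower. At G90 it was at 32.1 and 25.04 CPM. ABCG1 at G90 had 21 UMIs (6.13 CPM, 3.79 to 9.36) and 2 (1.79, 0.217 to 6.46). ABCA1 was at 32.7 CPM (26.9 to 39.3) in the epithelial-rich and 56.3 (43.3 to 72.1) in the adipocyte-rich spots of G90, and at 53.1 and 48.7 at PI2.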

How the data were processed

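The authors made GEXSCOPE libraries from nuclei of glands and from milk cells, counted UMIs per gene with CeleScope on Sscrofa11.1, and counted the sections with Space Ranger, whose version differs between the sources. The deposited values are raw UMI counts of barcodes called as cells or spots, with no correction for free RNA and no removal of doublets, and with an annotation release not given in the sources used here. Barcodes of glands and milk with fewer than 300 genes, or with more than 25% of UMIs on 13 mitochondrial genes, were left out. A barcode joined the class with most detected markers, at least 2 and more than in any other class, so ties stayed out, and no doublet caller was run. UMIs were summed per sow and class with at least 10 nuclei and tested with edgeR 4.0.16 (quasi-likelihood, TMM, filterByExpr) in R 4.3.3, DESeq2 1.42.0 being an alternative. On simulated counts with 190 changed genes for L0 against the other stages, edgeR recovered 186 at a biological coefficient of variation of 0.2 and 115 at 0.5. The changes planted were absolute log2 fold changes of at least 2. Smaller changes, and steps between 2 stages, were not simulated. Members, lists and tests were chosen with earlier results of these data known. Named were the 7 genes throughout, and genes of the lists where called, plus those nearest in pattern. IDI1 and the genes of the lists described but not called were named after their values were seen. Promoters were read from RefSeq's Sscrofa11.1 sequence. Some genes of the lists and 1 promoter are not reported here.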

Additional observations from a re-analysis of the deposited data

How the results depend on the processing

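Of 684 values under alternatives, 617 kept their direction and call or, for counts, stayed within 1.5 times. Among genes with an unadjusted p under 0.05, direction turned in ABCG2 from G90 to L0 without G90 replicate 2 (0.51) and in SQLE from PI2 to PI7 without PI2 replicate 2 (0.46). Of the ratios without replicates, ABCG1 in milk (1.34, mature milk over colostrum) turned to 0.949 with the stricter quality filter on cells (500 genes, 10% mitochondrial) and to 0.906 as a mean over cells. Taking 20% of spots turned the ratio of epithelial-rich over adipocyte-rich spots for SQLE at G90 (0.795 to 1.46) and, at PI2, for ABCG1 (1.41 to 0.855), HMGCS1 (0.949 to 1.04) and ABCA1 (1.09 to 0.955). With 1 gland left out, ABCG2 from G90 to L0 ranged from -2.86 to 0.51 and SQLE from PI2 to PI7 from -3.43 to 0.46. From L0 to L20, the count of the 7 genes called was 3 with DESeq2, 3 with no filter on low counts and 0 to 2 with 1 gland left out, and the same counts, 3, 3 and 0 to 2, held for L0 against the other stages. The cell class comparison gave 3 calls in place of 11 under the gate that allowed no marker of another class, where 5 classes could be fitted and ABCA1 and ABCG2 alone passed the filter, so INSIG1 and ABCG1 in macrophages had no value there. Under that gate 14.5% to 33.9% of all genes were called in a class. The cell class comparison gave 10 calls without the sow block, beside 8.56% to 26.9% of all genes in a class. With 1 gland left out it gave 8 to 13, for which the share of all genes was not computed. Mural ABCG2 and INSIG1 of T and NK cells were not called with the stricter gate, and ABCG2 of myoepithelial and mural cells and ABCG1 of fibroblasts and adipocytes not without the sow block. Replicate numbers did not pair the sows (correlations of deviations from -0.436 to 0.306 over 10 pairs of stages). With the replicate number as a block, 0 of the 7 genes were called between stages, as without it. The cause of these shifts was not tested. Precision was limited by 2 sows a stage and a biological coefficient of variation of 0.495 in epithelial sums.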

Other observations

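In milk, the mean of each cell's own share gave ABCA1 at 221.8 per 1000000 UMIs in colostrum and 1459 in mature milk, a ratio of 6.58, and ABCG2 at 9.755 and 6.78, under 2-fold. Nuclei hold unspliced RNA and few cytoplasmic transcripts, whereas milk cells and sections hold whole-cell RNA. Levels were therefore not compared between these assays, and only directions were set side by side for sections and epithelial nuclei. Adipocyte nuclei were few, milk and sections had 1 library a stage, and animals of milk and glands are not tied by the labels.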
